A study of Homo sapiens with 18 samples.

Results

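The 36 genes described here carry out homologous recombination and Fanconi repair in human cells. They were chosen by name: 5 genes of DNA end sensing and resection, 4 damage kinases, 5 genes of the BRCA complexes, 5 strand exchange paralogs, 4 strand exchange partners, 2 RecQ helicases, 8 genes of the Fanconi core complex, 2 of the Fanconi ID complex and the lesion bypass ligase RAD18. All 36 were among the 58735 genes counted, and all 36 passed the filter on low counts, as did 18939 genes in the knockdown and 15462 in the overexpression. RNA sequencing compared cells with altered RAD21, the kleisin subunit of the cohesin ring, in 18 libraries of 6 groups with 3 replicates each. In A549 and in H358, which are established human lung adenocarcinoma lines, lentiviral shRNA against RAD21 (shRAD21) was set against an empty control vector (shNC). In A549, RAD21 overexpression (RAD21OE) was set against an empty vector (EV). All cells grew in the same medium with serum, the controls are labelled wild type, and the labels put the overexpression in a batch of its own, so levels are compared only within the knockdown or within the overexpression. The labels do not say whether replicates were separate cultures or whether shRNA cells were clones, and the p-values may therefore rest on technical spread alone.

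Homologous recombination repairs a broken chromosome by copying the intact sister. The MRE11, RAD50 and NBN proteins bind the break, nucleases trim the ends, and BRCA1, PALB2 and BRCA2 prepare the exposed strand to search for and pair with the sister. The Fanconi pathway handles crosslinks between the strands: a core complex of FANC proteins attaches ubiquitin to FANCD2 and FANCI, and the crosslink is cut out and repaired by recombination. Most of these genes are more active in dividing cells, and cohesin itself holds the sister in place for repair.

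RAD21 read counts followed the labels. In A549, RAD21 stood at 129, 132 and 101 CPM (read counts scaled to a common library size by library total and TMM factor) in shRAD21 libraries, against 257, 253 and 255 CPM in shNC libraries. In H358 it stood at 379, 427 and 433 CPM in shRAD21 libraries, against 569, 589 and 603 CPM in shNC libraries, and RAD21OE libraries had 1520, 1501 and 1306 CPM, against 195, 209 and 194 CPM in EV libraries. The log2 fold changes were -1.08, -0.51 and 2.85, with edgeR adjusted p = 2.99e-08, 0.000671 and 2.9e-10, and the knockdown was smaller in H358 than in A549 by 0.57 on the log2 scale (edgeR adjusted p = 0.00228). An exact two-sided permutation test gave p = 0.1 in each, the smallest that 3 against 3 allow. Library totals were 15155077 to 19277568 counts in the knockdown and 13024640 to 14276335 in the overexpression. A line marker fitted the labels: CDKN2A had 120 to 134 CPM in H358 libraries and a count of 0 in every A549 library. All 6 epithelial markers were expressed in every group, whereas of 5 lung lineage markers 2 reached 1 CPM in H358 and 1 in A549, so the lung origin of A549 rests on its label. Summed epithelial markers were 12500 to 15800 CPM in A549 shRAD21 libraries, against 9570 to 10100 CPM in shNC libraries, and 12800 to 16600 CPM in RAD21OE libraries, against 11100 to 11400 CPM in EV libraries; their part in the results was not tested. Leukocyte markers summed to at most 9.4 CPM in any library, endothelial markers to at most 18.2 CPM and fibroblast markers to at most 42.4 CPM. Replicate 3 of A549 shRAD21 and replicate 3 of RAD21OE stood apart: the median absolute log2 difference to their own replicates was 0.23 to 0.31, against 0.11 to 0.15 in all other pairs.

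Promoter sequence is shown for BRIP1, which was called in both A549 comparisons in opposite directions, for EXO1, the gene called in H358, and for FANCA, the Fanconi core gene with the smallest adjusted p under overexpression. Windows run from 250 bases before to 50 bases after the first start listed by RefSeq in GRCh38.p14, on the gene's strand, 5′ to 3′. Capitals mark a CCAAT box, an E2F-type motif or an NRF1-type motif on either strand. BRIP1 lies at chr17:61863479-61863778 on the minus strand, EXO1 at chr1:241847954-241848253 on the plus strand, and FANCA at chr16:89816598-89816897 on the minus strand.
BRIP1: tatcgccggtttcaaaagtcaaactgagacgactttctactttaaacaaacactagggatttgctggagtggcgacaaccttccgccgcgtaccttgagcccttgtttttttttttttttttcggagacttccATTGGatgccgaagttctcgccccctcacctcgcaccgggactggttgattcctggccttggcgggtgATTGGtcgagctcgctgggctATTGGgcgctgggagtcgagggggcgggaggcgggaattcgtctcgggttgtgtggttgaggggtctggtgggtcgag
EXO1: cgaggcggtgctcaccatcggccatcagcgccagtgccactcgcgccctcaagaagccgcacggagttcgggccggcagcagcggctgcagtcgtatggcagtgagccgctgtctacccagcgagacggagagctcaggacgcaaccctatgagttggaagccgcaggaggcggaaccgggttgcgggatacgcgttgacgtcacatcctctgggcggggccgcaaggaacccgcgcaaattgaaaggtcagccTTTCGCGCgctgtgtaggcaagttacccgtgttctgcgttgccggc
FANCA: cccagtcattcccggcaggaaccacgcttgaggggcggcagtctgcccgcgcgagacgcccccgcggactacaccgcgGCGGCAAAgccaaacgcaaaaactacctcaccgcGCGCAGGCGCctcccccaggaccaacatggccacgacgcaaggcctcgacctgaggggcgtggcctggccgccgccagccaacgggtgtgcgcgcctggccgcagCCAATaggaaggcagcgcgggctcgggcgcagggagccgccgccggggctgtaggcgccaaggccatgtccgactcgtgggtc
BRIP1 has 3 CCAAT boxes, read as ATTGG on the gene's strand, which begin at positions -117, -49 and -28 from the start. EXO1 has an E2F-type motif at position 5, just inside the transcript, and FANCA has one at -172, an NRF1-type motif at -138 and a CCAAT box at -33.

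Of the 36 genes, 32 had a promoter in that table; FANCI, NBN, RAD54B and WRN had no entry. Each motif was searched on both strands as fixed letters. Where several starts are listed, as for EXO1, BRCA1 and RAD51B, only the first was used. The window of RAD51B begins at 67823291 on chromosome 14, inside the gene, which begins at 67819779. That of BRCA1, at 43170278 to 43170577 on chromosome 17, lies wholly outside the gene as counted, which ends at 43170245. A gene without a match may therefore hold the motif at another start. An E2F-type motif, any of TTTCCCGC, TTTCGCGC, TTTGCCGC and TTTGGCGC, was found in 5 of the 32 promoters (15.6%), those of EXO1, FANCA, FANCC, FANCD2 and XRCC2, and in 3.33% of all 27305 promoters in the table. An ETS-type motif, CCGGAAGT, was found in 6 of 32 (18.8%), those of BRCA2, FANCD2, MRE11, PALB2, RAD18 and RAD50, and in 4.44% of all promoters. The NRF1-type motif, GCGC and TGCGC parted by 1 base of any kind, was found in 6 of 32 (18.8%), those of ATM, FANCA, PALB2, RAD18, RAD51AP1 and XRCC2, and in 6.28% of all promoters. CCAAT was found in 13 of 32 (40.6%) and in 35.7% of all promoters. These matches describe letters in a window, and no binding was measured here. Of the genes with an E2F-type motif, EXO1 was called in H358, FANCA and FANCC under overexpression, and FANCD2 and XRCC2 in no comparison with RAD21 altered.

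The genes stood at widely spread levels before RAD21 was altered. The lines differed in 66.7% of them, beside 76.0% of all genes tested (edgeR, adjusted p under 0.05). Per kilobase of exon, FANCI, which pairs with FANCD2, was the highest of the 36, at 18.7 ± 0.747 CPM per kilobase in H358 shNC libraries and 25.4 ± 0.394 in A549 shNC libraries in the knockdown (mean ± SD, n = 3 each). RAD51B, a strand exchange paralog, was the lowest in A549 shNC libraries, at 0.589 ± 0.0711 CPM per kilobase, and tied with RAD50 in H358 shNC libraries, at 0.740 ± 0.122 against 0.741 ± 0.102 for RAD50. Comparing H358 shNC with A549 shNC libraries, 9 genes were higher and 15 lower (edgeR, adjusted p under 0.05), where 39.1% of all genes tested were higher and 36.8% lower. With libraries scaled by their totals alone, the median log2 difference of all genes was 0.27 in place of 0.05, 15 members were higher and 13 lower, beside 46.8% and 29.9% of all genes, and the members' median was 0.07 in place of -0.15.

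**Figure D1:**
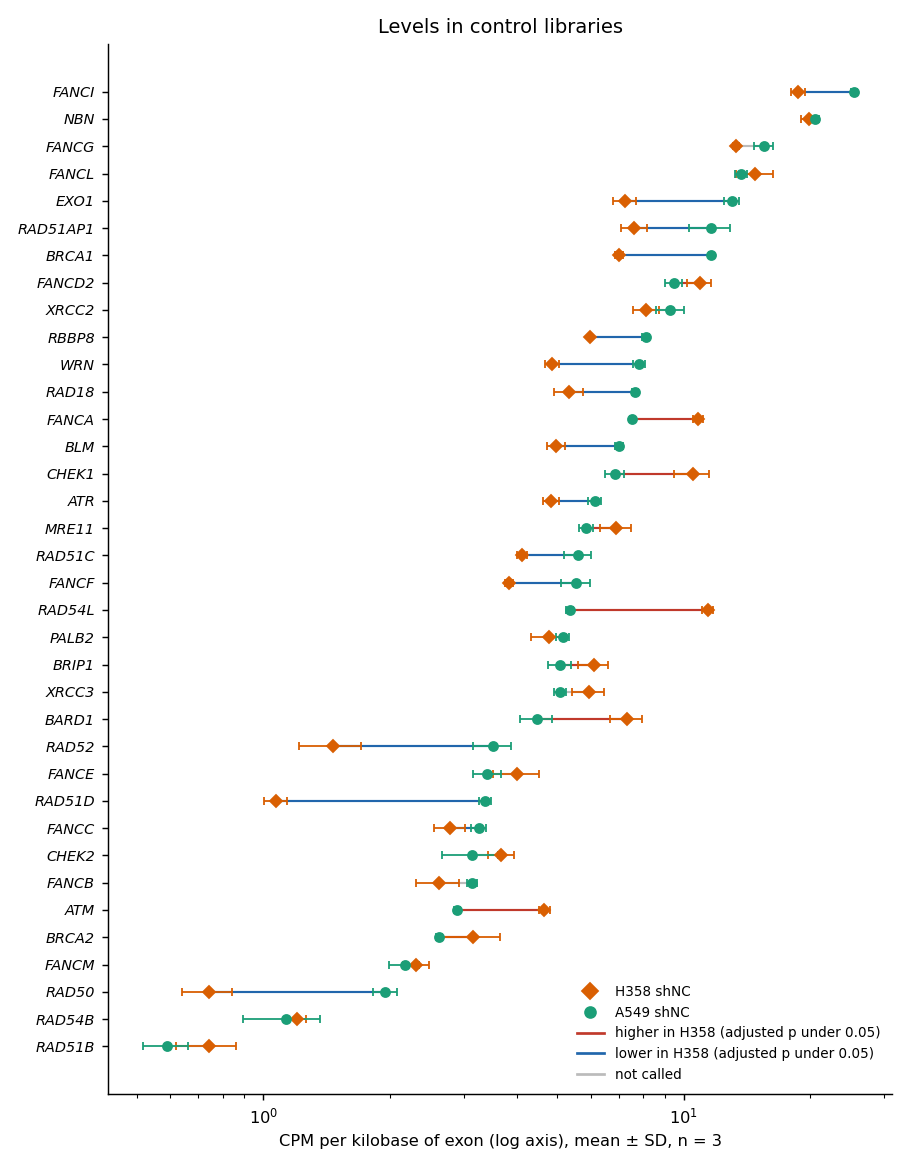
Levels of the 36 genes in H358 shNC (diamonds) and A549 shNC libraries (circles) as CPM per kilobase of exon on a log axis, mean ± SD of 3 libraries; joining lines are coloured by the edgeR call. FANCI and NBN stand at the top and RAD50, RAD54B and RAD51B at the bottom, and RAD51D, RAD50 and RAD52 show the widest gaps towards lower levels in H358. RAD54B shares 59.08% of its exon length with FSBP on the same strand, so its level is uncertain.

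The genes furthest below A549 in H358 came from several steps of recombination. RAD51D, the paralog that joins XRCC2 to the other paralogs, had 11.8, 11.5 and 12.9 CPM in H358 shNC libraries and 39.4, 37.8 and 37.1 CPM in A549 shNC libraries, a log2 difference of -1.66 ± 0.09 (SE; edgeR adjusted p = 1.16e-11). RAD50, the coiled-coil ATPase of the end-binding complex, had 6.11, 7.67 and 7.96 CPM in H358 and 20.1, 17.7 and 19.6 CPM in A549, a difference of -1.40 ± 0.12 (edgeR adjusted p = 5.23e-09). RAD52, which anneals single strands, had 7.22, 5.90 and 5.21 CPM in H358 and 16.5, 14.1 and 13.7 CPM in A549, a difference of -1.27 ± 0.13 (edgeR adjusted p = 7.88e-08). The libraries of the lines do not overlap for any of these genes. Of the exon length of RAD50, 79.66% is shared with AC116366.3 on the same strand, and the sources used here do not say how reads on shared exons were counted, so its level is uncertain.

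EXO1, the exonuclease of long-range resection, had 28.0, 30.2 and 31.7 CPM in H358 shNC libraries and 54.9, 50.9 and 55.1 CPM in A549 shNC libraries, a log2 difference of -0.84 ± 0.09 (edgeR adjusted p = 1.57e-07). BRCA1 had 63.8, 63.4 and 65.9 CPM in H358 and 107, 106 and 108 CPM in A549, a difference of -0.73 ± 0.09 (edgeR adjusted p = 7.84e-07). WRN, a RecQ helicase with an exonuclease domain, had 28.5, 27.3 and 26.5 CPM in H358 and 42.6, 44.4 and 45.4 CPM in A549, a difference of -0.69 ± 0.12 (edgeR adjusted p = 5.2e-05). Every H358 library was below every A549 library for these genes. RAD51AP1, FANCF, RAD18, BLM, RAD51C, FANCI, RBBP8, ATR and FANCC were also lower in H358, by log2 differences from -0.61 to -0.22.

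On the other side, RAD54L, a DNA translocase of strand exchange, had 37.8, 36.6 and 35.6 CPM in H358 shNC libraries and 17.5, 17.2 and 16.9 CPM in A549 shNC libraries, a log2 difference of 1.09 ± 0.10 (edgeR adjusted p = 2e-08). RAD54L shares 25.09% of its exon length with LRRC41 on the other strand, and strand use in counting is not given, so its level is uncertain. BARD1, the obligate partner of BRCA1 in its ubiquitin ligase, had 40.4, 48.0 and 44.8 CPM in H358 and 28.8, 24.4 and 28.2 CPM in A549, a difference of 0.71 ± 0.11 (edgeR adjusted p = 1.74e-05). ATM, the kinase activated at breaks, had 108, 113 and 115 CPM in H358 and 68.6, 68.5 and 70.6 CPM in A549, a difference of 0.69 ± 0.11 (edgeR adjusted p = 1.18e-05). These genes again separate the lines without overlap. CHEK1, the effector kinase below ATR, had 61.4, 71.5 and 73.8 CPM in H358 and 47.6, 43.2 and 44.3 CPM in A549 (0.61 ± 0.10, edgeR adjusted p = 1.21e-05). FANCA, a subunit of the Fanconi core, had 104, 109 and 104 CPM in H358 and 74.2, 72.5 and 73.7 CPM in A549 (0.52 ± 0.07, edgeR adjusted p = 1.34e-06). BRIP1, a helicase that binds BRCA1, had 44.4, 50.1 and 52.0 CPM in H358 and 42.5, 37.7 and 41.5 CPM in A549 (0.27 ± 0.11, edgeR adjusted p = 0.0356). Those of CHEK1 and FANCA are well apart, while the gap for BRIP1 is only the step between 42.5 and 44.4 CPM. BRCA2, MRE11 and FANCD2 were higher in H358 by 0.26, 0.23 and 0.21. The calls of BRIP1, BRCA2, MRE11 and FANCD2 were lost under 4 to 8 of the 14 alternatives each, and all 4 were lost without H358 shNC replicate 2, which left 5 members higher. The share of all genes in that fit is not given here.

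In A549 with RAD21 knocked down, 4 of the 36 genes rose and 1 fell. BARD1, BRIP1, RBBP8 and FANCI were higher, by log2 fold changes of 0.51, 0.44, 0.37 and 0.27, and FANCG was lower by 0.29. Over all genes tested, 14.4% rose and 10.9% fell (11.8% and 13.3% with libraries scaled by their totals alone), and the members' count is no higher than that background. The median log2 fold change of the members was 0.12, beside 0.0 for all genes, and 28 of 36 lay above 0, beside 50.5% of all genes. In bulk RNA, fewer cells of a type and less RNA per cell cannot be told apart.

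**Figure D2:**
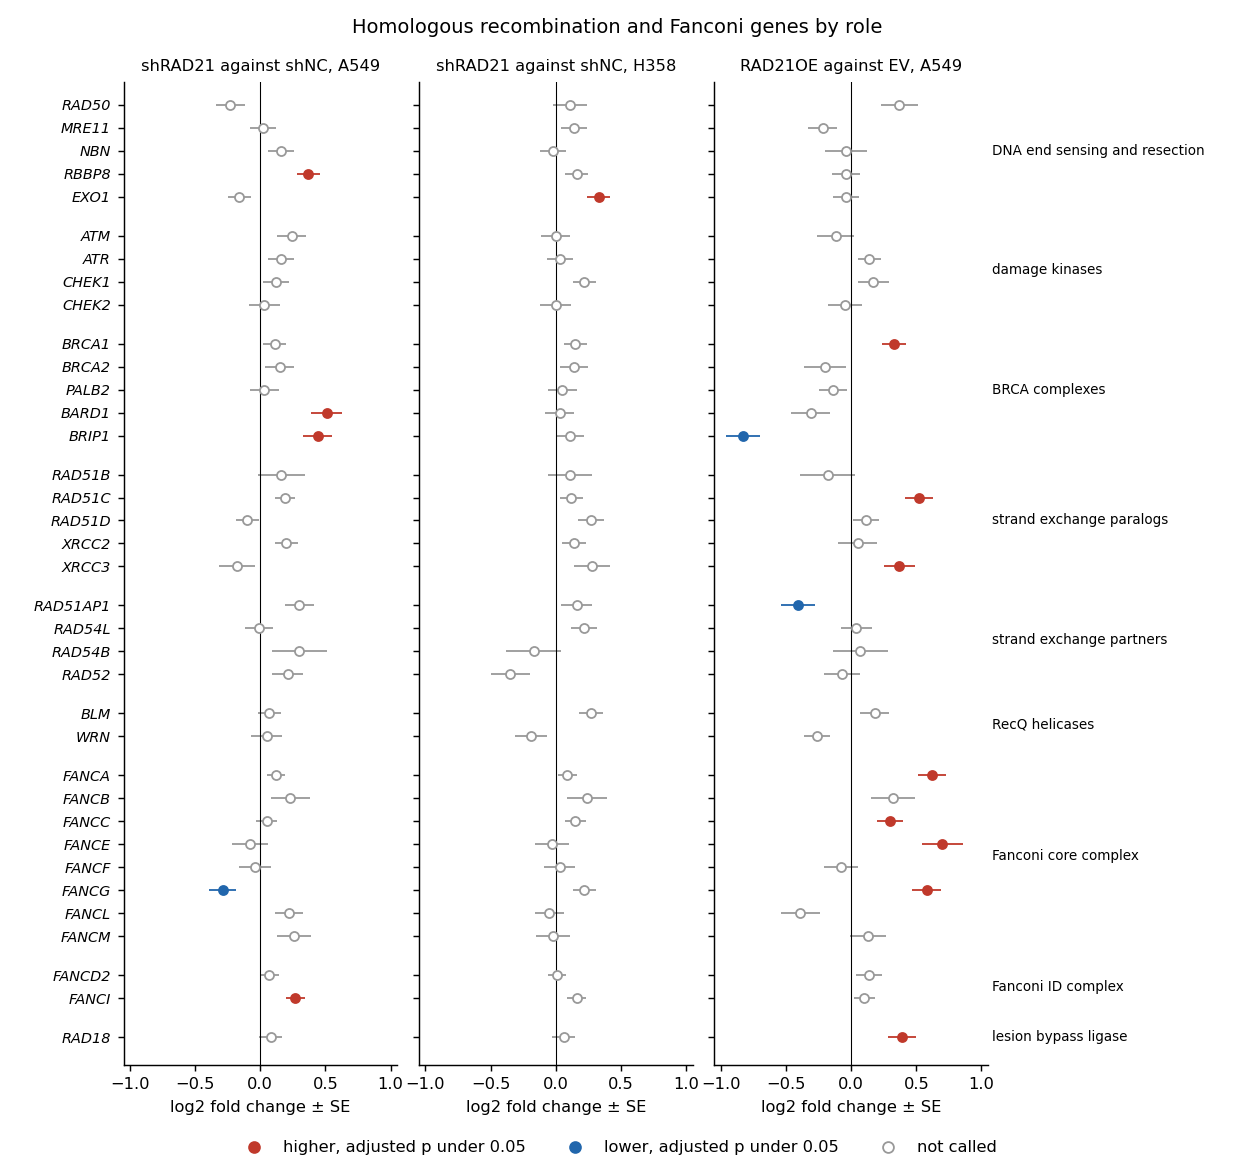
Log2 fold change ± SE of each of the 36 genes, ordered by role, for shRAD21 against shNC in A549, shRAD21 against shNC in H358, and RAD21OE against EV in A549; filled red points were called higher and filled blue points lower (edgeR, adjusted p under 0.05). Calls are 4 higher and 1 lower in A549, 1 higher in H358, and 8 higher and 2 lower under overexpression, where BRIP1 has the lowest value of the 36, -0.83.

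Within the BRCA complexes, 2 of 5 genes rose in A549. BARD1 had 44.3, 39.8 and 31.8 CPM in shRAD21 libraries, against 28.8, 24.4 and 28.2 CPM in shNC libraries, a log2 fold change of 0.51 ± 0.12 (SE; edgeR adjusted p = 0.00305). BRIP1 had 62.8, 58.0 and 44.3 CPM in shRAD21 libraries, against 42.5, 37.7 and 41.5 CPM in shNC libraries (0.44 ± 0.11, edgeR adjusted p = 0.00636). For both, every shRAD21 library was above every shNC library, and replicate 3 of shRAD21 was the lowest of its group. BRCA1, with which both proteins pair, had a log2 fold change of 0.11 ± 0.09 (edgeR adjusted p = 0.42). PALB2, the bridge between BRCA1 and BRCA2, had 0.03 and BRCA2, which prepares single strands for pairing, 0.15, neither called. As a description chosen after the values were seen, the ratio of BARD1 to BRCA1 in CPM per kilobase was 0.531, 0.486 and 0.506 in shRAD21 libraries and 0.407, 0.349 and 0.394 in shNC libraries. The ratio of BRIP1 to BRCA1 was 0.571, 0.538 and 0.536 in shRAD21 libraries and 0.457, 0.411 and 0.441 in shNC libraries. For both ratios every shRAD21 library was above every shNC library. The ratio of RAD51C to XRCC3 set replicate 3 apart. It was 1.81, 1.78 and 0.976 in shRAD21 libraries and 1.03, 1.19 and 1.10 in shNC libraries. The ratio of PALB2 to BRCA2 did not, at 1.70, 1.99 and 1.74 in shRAD21 libraries.

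Among the genes of end sensing and resection, RBBP8 rose. It encodes CtIP, which switches on the MRE11 nuclease to begin resection, and it had 57.4, 57.5 and 45.5 CPM in shRAD21 libraries, against 40.4, 41.8 and 41.7 CPM in shNC libraries (0.37 ± 0.09, edgeR adjusted p = 0.00471). RAD50, MRE11, NBN and EXO1 were not called, with log2 fold changes of -0.23, 0.02, 0.16 and -0.16. RAD50 had 16.6, 15.9 and 16.4 CPM in shRAD21 libraries, all below the 20.1, 17.7 and 19.6 CPM of shNC libraries, with edgeR adjusted p = 0.16. In the Fanconi ID complex, FANCI rose, with 254, 247 and 210 CPM in shRAD21 libraries, against 196, 194 and 200 CPM in shNC libraries (0.27 ± 0.07, edgeR adjusted p = 0.00831). Its call was lost without replicate 1 of shRAD21 and in a fit of the 6 A549 libraries alone, at edgeR adjusted p of up to 0.0767. FANCD2, its partner on DNA, had a log2 fold change of 0.07 and was not called.

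In the Fanconi core, FANCG, an adaptor subunit that binds FANCA, fell. It had 39.8, 43.8 and 53.2 CPM in shRAD21 libraries, against 53.0, 59.0 and 55.6 CPM in shNC libraries (-0.29 ± 0.10, edgeR adjusted p = 0.0301). The groups overlap, because replicate 3 of shRAD21 lies inside the range of the controls. The call was lost under 6 of 15 alternatives, among them the correction for GC content and length, where the log2 fold change was -0.10 (edgeR adjusted p = 0.288), and without shNC replicate 2 or 3 or shRAD21 replicate 1 or 2. The other 7 core genes were not called and lay between -0.08 (FANCE) and 0.26 (FANCM, the translocase that anchors the core to DNA). None of the 4 damage kinases ATM, ATR, CHEK1 and CHEK2 was called (0.03 to 0.24), nor of the strand exchange paralogs (-0.18 to 0.20), the strand exchange partners (-0.01 to 0.30), the RecQ helicases (0.05 and 0.07) or RAD18 (0.08). Over these 16 genes, edgeR gave an unadjusted p under 0.05 for ATM, RAD51C, XRCC2 and RAD51AP1, and DESeq2 and limma-voom called none of them. Over all genes tested, edgeR called 25.2% in either direction after adjustment, and at least that share has an unadjusted p under 0.05. XRCC3 (log2 fold change -0.18) shares 76.68% of its exon length with KLC1 on the other strand, and strand use in counting is not given, so reads of the pair may not be told apart.

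The A549 result depended on replicate 3 of shRAD21. The median deviation of the 36 genes from the shNC mean was 0.21, 0.20 and -0.07 on the log2 scale in shRAD21 replicates 1, 2 and 3, and 29, 28 and 16 of the genes lay above that mean. Their summed level was 1890, 1867 and 1600 CPM in shRAD21 libraries, against 1639, 1606 and 1641 CPM in shNC libraries. Without shRAD21 replicate 3, 18 members were higher and 2 lower, where 23.2% of all genes were higher and 19.9% lower, and the members' median was 0.22. The 14 genes that joined the rise were ATM, ATR, CHEK1, BRCA1, BRCA2, NBN, RAD51C, XRCC2, RAD51AP1, RAD54B, WRN, FANCB, FANCL and FANCM, and XRCC3 joined FANCG among the genes that fell. This fit was not corrected for GC content. The longest transcripts of the 14 had a GC content of 36.1% to 42.2%, beside a median of 48.4% over all genes tested. XRCC3 had 63.8% and FANCG 58.1%. Across all genes, deviations of replicates 1 and 2 from the mean of all knockdown libraries followed GC content (Spearman's rho -0.171 and -0.158). The part of GC content in these counts was not tested. The rise of RAD54B is uncertain, because it shares 59.08% of its exon length with FSBP on the same strand.

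**Figure D3:**
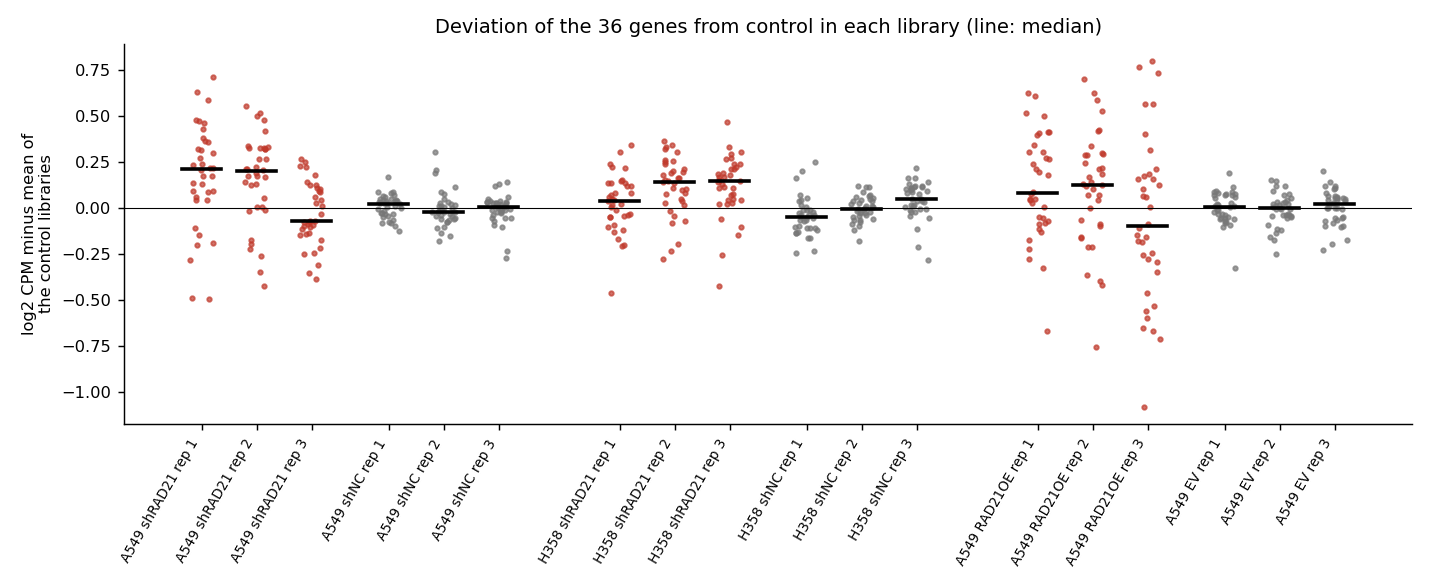
Deviation of each of the 36 genes from the mean of the control libraries of its comparison (log2 CPM, 1 point per gene) in each of the 18 libraries, with the median as a line. Medians are 0.21 and 0.20 in A549 shRAD21 replicates 1 and 2 but -0.07 in replicate 3, and 0.08, 0.13 and -0.10 in RAD21OE replicates 1, 2 and 3, while control medians lie between -0.05 and 0.05.

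In H358 with RAD21 knocked down, EXO1 was the only gene of the 36 that rose, and 0 fell. Over all genes tested, 3.78% rose and 4.62% fell (4.77% and 3.81% with libraries scaled by their totals alone). At an unadjusted p under 0.05, edgeR gave 7 members higher and 1 lower (RAD52), beside 11.2% and 11.7% of all genes, and DESeq2 and limma-voom also called 1 higher and 0 lower. The members' median log2 fold change was 0.11, beside 0.0 for all genes, and 29 of 36 lay above 0, beside 49.3% of all genes.

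EXO1 had 38.1, 37.7 and 37.0 CPM in shRAD21 libraries, against 28.0, 30.2 and 31.7 CPM in shNC libraries, a log2 fold change of 0.33 ± 0.09 (edgeR adjusted p = 0.0365). Every shRAD21 library was above every shNC library, and the 3 shRAD21 libraries were within about 1 CPM of each other. The call was lost when any 1 of the 6 H358 libraries was left out (edgeR adjusted p up to 0.146). Ranges of the groups did not overlap for 12 members that were higher and 2 that were lower, beside 18.0% and 18.1% of all genes; EXO1 is among the 12, and the 2 were RAD52 and WRN.

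Several genes were above their controls in every H358 library without passing the adjusted threshold. BLM, the RecQ helicase that dissolves crossed strands, had 36.1, 42.1 and 41.8 CPM in shRAD21 libraries, against 31.7, 34.9 and 33.0 CPM in shNC libraries (0.27 ± 0.09, edgeR adjusted p = 0.0794). RAD51D had 14.9, 14.4 and 14.2 CPM in shRAD21 libraries, against 11.8, 11.5 and 12.9 CPM in shNC libraries (0.27 ± 0.10, edgeR adjusted p = 0.103). CHEK1 had 75.5, 81.2 and 84.2 CPM in shRAD21 libraries, against 61.4, 71.5 and 73.8 CPM in shNC libraries (0.22 ± 0.09, edgeR adjusted p = 0.16). For all 3 genes the lowest shRAD21 library was above the highest shNC library. RAD52 had 4.37, 4.97 and 5.05 CPM in shRAD21 libraries, against 7.22, 5.90 and 5.21 CPM in shNC libraries (-0.35 ± 0.15, edgeR adjusted p = 0.162), the lowest fold change of the 36 in H358. The BRCA genes were not called and ranged from 0.03 (BARD1) to 0.15 (BRCA1), the Fanconi core from -0.05 (FANCL) to 0.24 (FANCB), and the damage kinases from 0.0 (ATM and CHEK2) to 0.22 (CHEK1). FANCD2 had 0.01, FANCI 0.16 and RAD18 0.06.

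Calls in H358 moved with the fit. With only the 6 H358 libraries, whose spread is then estimated apart from A549, 9 members were higher, where 12.7% of all genes were: EXO1, BRCA1, FANCI, CHEK1, BLM, RAD51D, RAD54L, FANCG and XRCC3. With each library corrected for trends on GC content and length, 12 were higher, where 8.71% of all genes were: EXO1, BRCA1, BRCA2, BRIP1, CHEK1, BLM, FANCI, MRE11, RBBP8, RAD51AP1, RAD51D and XRCC2. All of these also had log2 fold changes above 0 without these changes to the fit.

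RAD21 fell less in H358 than in A549, so line and depth of knockdown cannot be told apart. The response to the knockdown was tested for a difference between the lines. It was higher in H358 than in A549 for EXO1 and FANCG and lower for BARD1, where 7.61% of all genes tested were higher and 9.94% lower (10.4% and 7.33% with libraries scaled by their totals alone, when 3 members were higher and 0 lower). At an unadjusted p under 0.05, edgeR gave 4 members higher and 3 lower, beside 14.3% and 16.7% of all genes. For EXO1 the log2 fold change was 0.33 in H358 and -0.16 in A549, a difference of 0.49 ± 0.13 (edgeR adjusted p = 0.0152) that was called under all 20 alternatives tried. In A549, EXO1 had 49.7, 53.1 and 41.0 CPM in shRAD21 libraries, against 54.9, 50.9 and 55.1 CPM in shNC libraries, which overlap. For FANCG it was 0.22 in H358 and -0.29 in A549, a difference of 0.52 ± 0.13 (edgeR adjusted p = 0.0127). In H358, FANCG had 57.0, 59.6 and 52.1 CPM in shRAD21 libraries, against 48.5, 47.4 and 48.9 CPM in shNC libraries. These do not overlap, but FANCG was not called in H358. In A549 the groups of FANCG overlap. With the correction for GC content and length its difference was 0.25 (edgeR adjusted p = 0.05).

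For BARD1 the log2 fold change was 0.03 in H358 and 0.51 in A549, a difference of -0.49 ± 0.16 (edgeR adjusted p = 0.0439). H358 libraries had 45.0, 41.9 and 48.8 CPM with shRAD21 and 40.4, 48.0 and 44.8 CPM with shNC, which overlap, while the A549 groups do not. The call of the difference was lost under 14 of 20 alternatives, with edgeR adjusted p up to 0.186, among them those without any 1 library of the knockdown other than A549 shRAD21 replicate 3 and H358 shNC replicate 1. BRIP1 was not called for the difference (-0.33 ± 0.15, edgeR adjusted p = 0.156), so the data do not show that its response differs between the lines. RAD52 (-0.56 ± 0.19) and RAD51D (0.37 ± 0.13) came near the threshold, at edgeR adjusted p = 0.054 and 0.0652. Without A549 shRAD21 replicate 3 the count was 5 higher and 12 lower, beside 17.9% and 19.6% of all genes.

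**Figure D4:**
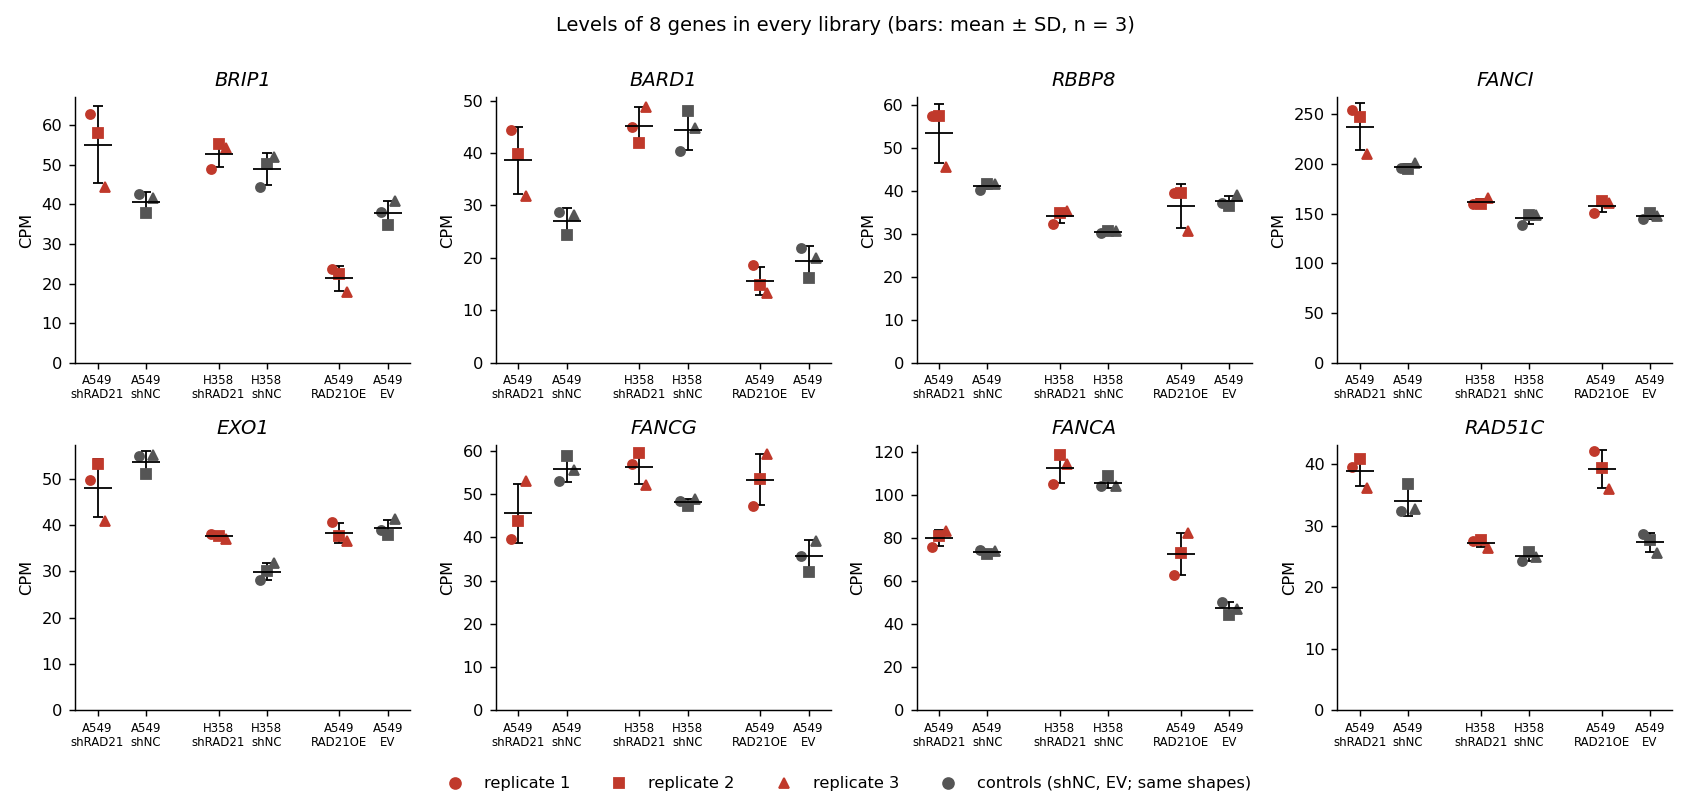
CPM of 8 genes in every library, with shapes for replicates 1 to 3 and bars for mean ± SD (n = 3); shRAD21 or RAD21OE libraries are red and stand left of their shNC or EV controls in grey. BRIP1 stands above its controls in A549 shRAD21 and below them in RAD21OE, EXO1 is above its controls in H358, and FANCA, FANCG and RAD51C are above theirs in RAD21OE.

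With RAD21 overexpressed in A549, 8 of the 36 genes rose and 2 fell, and 4 of the 8 that rose belong to the Fanconi core. FANCE, FANCA, FANCG and FANCC rose by log2 fold changes of 0.70, 0.62, 0.58 and 0.30, RAD51C, XRCC3, RAD18 and BRCA1 by 0.52, 0.37, 0.39 and 0.33, and BRIP1 and RAD51AP1 fell. Over all genes tested, 14.1% rose and 13.7% fell. With libraries scaled by their totals alone, 6 members rose and 3 fell, beside 12.2% and 14.9% of all genes. The members' median log2 fold change was 0.06, beside -0.01 for all genes, and 20 of 36 lay above 0, beside 48.5% of all genes. Ranges of the groups did not overlap for 10 members that were higher and 4 that were lower, beside 22.9% and 22.6% of all genes.

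Of the 8 Fanconi core genes, 4 were higher and 4 were not called. FANCE, which links the core to FANCD2, had 8.05, 8.62 and 9.02 CPM in RAD21OE libraries, against 5.30, 5.84 and 4.63 CPM in EV libraries (0.70 ± 0.16, edgeR adjusted p = 0.00561). FANCA had 62.9, 72.8 and 82.2 CPM in RAD21OE libraries, against 50.4, 44.3 and 47.2 CPM in EV libraries (0.62 ± 0.11, edgeR adjusted p = 0.00125). FANCG had 47.3, 53.6 and 59.2 CPM in RAD21OE libraries, against 35.8, 31.9 and 39.3 CPM in EV libraries (0.58 ± 0.11, edgeR adjusted p = 0.00256). The groups do not overlap for any of these, and replicate 3 of RAD21OE was the highest of each. All 3 were called under every one of the 14 alternatives, with the correction for GC content and length among them, where the log2 fold changes were 0.60, 0.52 and 0.47. FANCA shares 23.64% of its exon length with ZNF276 on the other strand. FANCC, another core subunit, had a log2 fold change of 0.30 ± 0.10 (edgeR adjusted p = 0.0374), with 39.4, 39.0 and 39.6 CPM in RAD21OE libraries, against 30.2, 30.8 and 34.6 CPM in EV libraries, and was not called under 6 of 14 alternatives. FANCL, the ubiquitin ligase of the core, had the lowest value among core genes, -0.39 ± 0.15, and was not called (edgeR adjusted p = 0.0613). It had 21.6, 24.3 and 16.5 CPM in RAD21OE libraries, against 28.5, 29.6 and 23.7 CPM in EV libraries, which overlap. FANCB, FANCF and FANCM were not called, at 0.32, -0.08 and 0.13.

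Outside the core, RAD51C, the paralog present in both paralog complexes, had 42.2, 39.3 and 36.02 CPM in RAD21OE libraries, against 28.6, 27.7 and 25.5 CPM in EV libraries (0.52 ± 0.11, edgeR adjusted p = 0.0033), and was called under all 14 alternatives. RAD18, the ligase that marks PCNA for lesion bypass, had 47.3, 44.8 and 38.6 CPM in RAD21OE libraries, against 32.6, 32.5 and 34.9 CPM in EV libraries (0.39 ± 0.11, edgeR adjusted p = 0.0162). For both genes every RAD21OE library was above every EV library. XRCC3, the partner of RAD51C, had 31.5, 34.9 and 40.8 CPM in RAD21OE libraries, against 29.2, 24.3 and 29.2 CPM in EV libraries (0.37 ± 0.12, edgeR adjusted p = 0.0387). BRCA1 had 92.8, 94.4 and 78.7 CPM in RAD21OE libraries, against 73.4, 72.2 and 66.0 CPM in EV libraries (0.33 ± 0.09, edgeR adjusted p = 0.0209). Calls of RAD18, XRCC3 and BRCA1 were each lost under 3 to 5 alternatives, among them those without EV replicate 1, EV replicate 2 or RAD21OE replicate 2. Leaving out any of these 3 libraries left 4 members higher, and leaving out EV replicate 3 left 5. The shares of all genes in those fits are not given here.

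BRIP1 fell in RAD21OE, to 23.7, 22.4 and 17.8 CPM, against 38.0, 34.9 and 40.8 CPM in EV libraries (-0.83 ± 0.13, edgeR adjusted p = 0.000494). The groups are far apart, with 56.3% of the EV level left in RAD21OE by the fitted fold change. This is the largest absolute log2 fold change of the 36 genes in the 3 comparisons with RAD21 altered. The call held under all 14 alternatives, with a log2 fold change of -0.59 after the correction for GC content and length, and in A549 shRAD21 its rise held under all 15, with 0.24 after that correction. The ratio of BRIP1 to BRCA1 in CPM per kilobase was 0.294, 0.273 and 0.261 in RAD21OE libraries and 0.595, 0.556 and 0.711 in EV libraries. BARD1 was not called under overexpression (-0.31 ± 0.15, edgeR adjusted p = 0.144), with 18.6, 14.9 and 13.2 CPM in RAD21OE libraries, against 21.9, 16.2 and 20.1 CPM in EV libraries, which overlap. RAD51AP1, which promotes strand pairing, had 22.6, 19.0 and 16.01 CPM in RAD21OE libraries, against 27.0, 24.9 and 24.7 CPM in EV libraries (-0.41 ± 0.13, edgeR adjusted p = 0.0358). Its groups do not overlap, but the call was lost with the correction for GC content and length (-0.11, edgeR adjusted p = 0.354) and without any of the 3 EV libraries or RAD21OE replicate 2. Genes of end sensing and resection ranged from -0.22 (MRE11) to 0.37 (RAD50), the damage kinases from -0.12 (ATM) to 0.17 (CHEK1), and BLM and WRN had 0.18 and -0.26, none of them called. BRCA2, PALB2, RAD51B, RAD51D, XRCC2, RAD52, RAD54L, RAD54B, FANCD2 and FANCI lay between -0.20 and 0.14, also not called. Among the genes not called, edgeR gave an unadjusted p under 0.05 for RAD50, WRN and FANCL, and DESeq2 and limma-voom called none of them. Over all genes tested, edgeR called 27.8% in either direction after adjustment, and at least that share has an unadjusted p under 0.05.

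In A549, the knockdown and the overexpression used separate controls. Of the 36 genes, 16 had the same sign in both, beside 42.2% of all genes tested in both, 14 were above 0 in the knockdown and below it in the overexpression, and 6 were the reverse. After the correction for GC content and length, 16 had the same sign, 8 were above 0 in the knockdown and below it in the overexpression, and 12 were the reverse. Across the 36 genes, Spearman's rho between the fold changes was -0.37, and across 15306 genes tested in both it was -0.19; after that correction it was -0.15 and -0.08. Genes are not independent replicates, and the comparisons share trends on GC content. BRIP1 and FANCG were the genes called in both, each in opposite directions: 0.44 and -0.29 in the knockdown, against -0.83 and 0.58 in the overexpression. The knockdown call of FANCG was lost after the correction for GC content and length and under other alternatives. The share of all genes called in both in opposite directions is not given here, so the pair is not shown to exceed it.

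Fold changes of these genes moved with the GC content of their transcripts. The longest transcript had a GC content between 36.1% (RAD51AP1) and 63.8% (XRCC3), with a median of 41.4%, beside 48.4% for all genes tested in the knockdown. Across the 36 genes, Spearman's rho between GC content and log2 fold change was -0.64 in the A549 knockdown, 0.18 in the H358 knockdown and 0.49 under overexpression. Across all genes tested it was -0.33, 0.18 and 0.32. The 6 members with a GC content of at least 50% had a median log2 fold change of -0.04 in the A549 knockdown and 0.48 under overexpression, and the 20 members under 42% had 0.18 and 0.01. Deviations of single libraries from their own group followed GC content as well. Across genes, rho was 0.586 in A549 shRAD21 replicate 3 and 0.672 in RAD21OE replicate 3, and -0.567 to -0.379 in the other replicates of these groups. In the shNC, EV and H358 shRAD21 libraries it lay between -0.296 and 0.227. Deviations from the mean of 3 libraries are not independent of each other. Against the mean of all knockdown libraries, rho was -0.171, -0.158 and 0.172 in A549 shRAD21 replicates 1, 2 and 3, and 0.104 to 0.138 in A549 shNC. By that measure replicate 3 lay nearer to the controls. Against the mean of all overexpression libraries, rho was -0.193, 0.055 and 0.625 in RAD21OE replicates 1, 2 and 3, and -0.325 to -0.221 in EV.

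**Figure D5:**
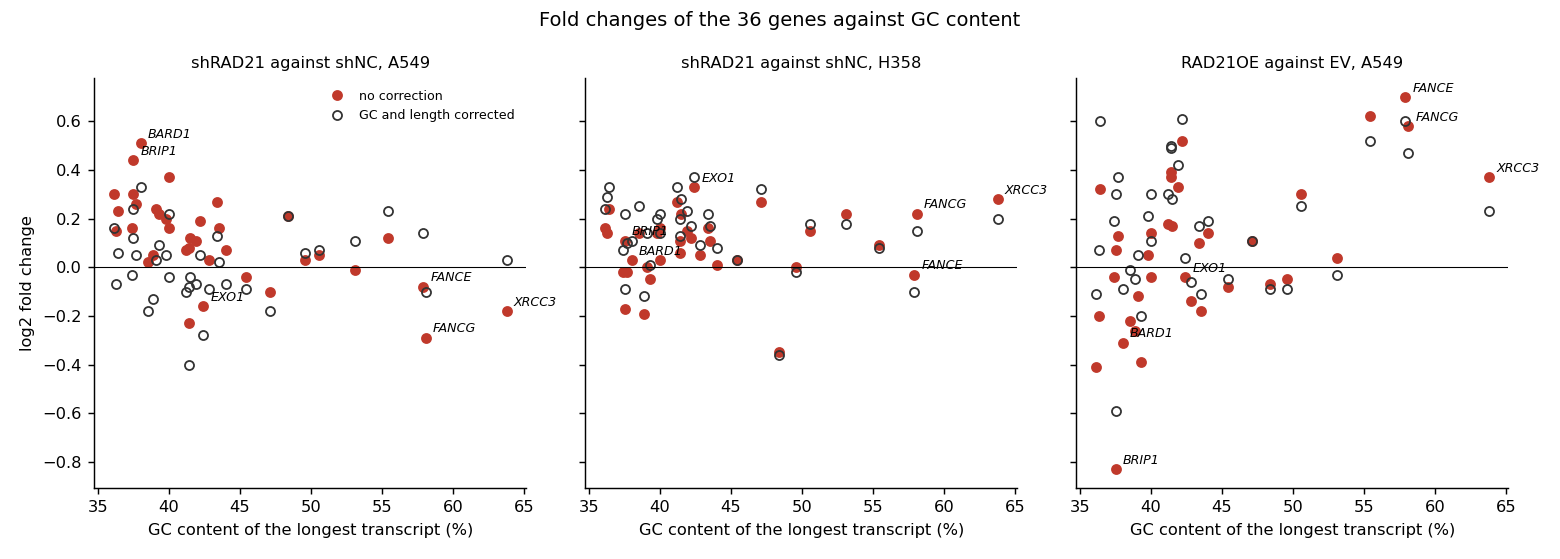
Log2 fold change of the 36 genes against the GC content of their longest transcript in percent, in the 3 comparisons, before (filled) and after (open) each library was corrected for trends on GC content and length. Filled points slope down in the A549 knockdown (rho -0.64) and up under overexpression (rho 0.49), and the slopes are near 0 in open points (rho -0.05 and 0.16).

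After that correction, rho across the members was -0.05, -0.19 and 0.16, and their median log2 fold change was 0.03 in the A549 knockdown, 0.17 in the H358 knockdown and 0.18 under overexpression. Members called were then 5 higher and 3 lower in the A549 knockdown, where 17.1% and 12.1% of all genes were. BARD1, BRIP1, RBBP8 and FANCI stayed higher, at smaller log2 fold changes of 0.33, 0.24, 0.22 and 0.13, and FANCA joined them, at 0.23 (edgeR adjusted p = 0.00375), while RAD50, EXO1 and MRE11 were lower, at -0.40, -0.28 and -0.18. Under overexpression 15 were higher and 1 lower, where 20.8% and 17.7% of all genes were. The 8 genes named above stayed higher, FANCB, RAD50, FANCM, ATR, CHEK1, BLM and FANCI joined them, and BRIP1 was the gene that was lower.

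Other DNA repair and damage signalling genes, from 4 lists with 87 genes of which 85 were tested, were counted beside the 36. The lists held 30 other homologous recombination genes and 18 other Fanconi and crosslink repair genes. The remainder were 25 genes of damage signalling and end protection and 14 of end joining. In the A549 knockdown 12 rose and 7 fell (median log2 fold change 0.06), in the H358 knockdown 10 rose (0.05), and under overexpression 16 rose and 2 fell (0.10). Of all genes tested, 14.4% rose and 10.9% fell in the A549 knockdown, 3.78% rose in the H358 knockdown, and 14.1% rose and 13.7% fell under overexpression. TONSL, which guards replication forks for recombination, rose in H358 (0.45 ± 0.10, edgeR adjusted p = 0.00877) and under overexpression (0.75 ± 0.10, edgeR adjusted p = 0.000196); its call in H358 was lost without shNC replicate 3 or shRAD21 replicate 2. ERCC1, a subunit of the nuclease that unhooks crosslinks, fell in the A549 knockdown (-0.68 ± 0.12, edgeR adjusted p = 0.000391), as did FAAP20, a core complex partner (-0.52 ± 0.14, edgeR adjusted p = 0.0125). FAAP20 was at -0.34 after the correction for GC content and length, and its call was lost with only the 6 A549 libraries and without shNC replicate 2 or shRAD21 replicate 1 or 2. SLX4, the nuclease scaffold, rose under overexpression (0.62 ± 0.10, edgeR adjusted p = 0.000876), and so did MDC1, the adaptor that reads the damage mark on chromatin (0.67 ± 0.10, edgeR adjusted p = 0.000403). The 2 that fell there were CENPS (-1.31 ± 0.43, edgeR adjusted p = 0.0352) and ATRX (-0.40 ± 0.13, edgeR adjusted p = 0.0387). After the correction for GC content and length they were at -1.35 and -0.16. LIG3, a DNA ligase of end joining, fell in the A549 knockdown (-0.31 ± 0.08, edgeR adjusted p = 0.00664) and rose under overexpression (0.74 ± 0.09, edgeR adjusted p = 0.000147). WEE1, the kinase that holds cells before mitosis, rose in the A549 knockdown (0.42 ± 0.08, edgeR adjusted p = 0.000501, and 0.22 with edgeR adjusted p = 0.0113 after the correction for GC content and length), and H2AFX, the histone that carries the damage mark, rose in the H358 knockdown (0.48 ± 0.10, edgeR adjusted p = 0.00411).

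Genes of the dividing cell moved in the same samples. Of 42 replication and S-phase genes, 11 rose and 2 fell in the A549 knockdown, 16 rose in the H358 knockdown, and 14 rose and 2 fell under overexpression, with median log2 fold changes of 0.06, 0.26 and 0.12. Of 30 mitosis genes, 19 rose in the A549 knockdown, 3 rose in the H358 knockdown, and 6 rose and 2 fell under overexpression, with medians of 0.25, 0.05 and 0.04. The shares of all genes given for the lists above (14.4%, 3.78% and 14.1% higher, 10.9%, 4.62% and 13.7% lower) are the background of these counts. Their part in the levels of the repair genes was not tested. In the A549 knockdown the S-phase genes RRM2 (0.51) and MCM6 (0.42) rose and CCNE1 fell (-0.61). In the H358 knockdown MCM6 (0.50) and FEN1 (0.45) rose beside EXO1.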

How the data were processed

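RNA was measured by sequencing. TRIzol RNA went into VAHTS Universal V6 libraries, per the labels' protocols, and the sources used here do not say whether strand was used. The authors deposited raw gene counts in 2 tables, 12 libraries for the knockdown and 6 for the overexpression. Tools listed in the submitters' processing notes are HISAT2 2.0.5, featureCounts 1.5.0-p3 and fastp, with the hg38 build. All 58735 genes carry the coordinates and exon length of GENCODE release 29.

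Groups follow the labels. Each table was fitted alone in R 4.3.3 with edgeR 4.0.16 (filterByExpr, TMM, 1 mean per group, quasi-likelihood F-test, two-sided), so the 4 groups of the knockdown share an estimate of the spread. Adjusted p is Benjamini-Hochberg over all genes tested, with calls made under 0.05. Common dispersion, as a biological coefficient of variation, came to 0.0864 for the knockdown table and 0.0981 for the overexpression table. Alternatives were DESeq2 size factors, library totals alone, no filter, a filter of 1 CPM, DESeq2 1.42.0, limma-voom (limma 3.58.1), replicate numbers as a block, offsets for GC content and length (lowess, span 0.3), only the 6 libraries of a line, and each library left out. The test was tried on simulated counts. Figures used matplotlib 3.10.9.

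Every member is given by role, and levels per library for the 6 largest rises and falls called in each comparison, for genes called in more than 1 comparison or between the lines; values of further genes given per library were chosen after they were seen. The members, lists and rules were chosen with earlier results of these data known. Promoters come from RefSeq on GRCh38.p14.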

Additional observations from a re-analysis of the deposited data

Results flagged for a closer look

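The response to the RAD21 knockdown differed between H358 and A549, by a test of the difference itself, for 3 of the 36 genes. RAD21 itself fell less in H358, so line and depth of knockdown cannot be told apart. EXO1 differed by 0.49 on the log2 scale and FANCG by 0.52, both higher in H358, and BARD1 differed by -0.49, lower in H358. EXO1 was above its controls in 3 of 3 H358 shRAD21 libraries, FANCG in 3 of 3, and BARD1 was above its controls in 3 of 3 A549 shRAD21 libraries. In the other line the groups of each gene overlap. In H358, 18.0% of all genes had every shRAD21 library above every shNC library. That share is not given here for A549. Of all genes tested, 17.6% were called for a difference between the lines, so 3 of 36 is no higher than that background. EXO1 was called under all 20 alternatives, FANCG under all but the correction for GC content and length, and BARD1 was lost under 14 of them.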

How the results depend on the processing

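In the A549 knockdown, 3 to 18 members were higher and 0 to 2 lower as each library was left out, the highest counts being those without shRAD21 replicate 3. There, 3 were lower with the correction for GC content and length (12.1% of all genes) and 0 with only the 6 A549 libraries (8.89%). Shares of all genes moved as well: 10.4% were higher and 7.44% lower without A549 shNC replicate 1, and 23.2% and 19.9% without A549 shRAD21 replicate 3. In the H358 knockdown, 0 were higher whichever library was left out. There, 12 were higher with the correction (8.71% of all genes) and 9 with only the 6 H358 libraries (12.7%). Under overexpression, 4 to 11 were higher and 1 to 3 lower as each library was left out, and 15 and 1 with the correction (20.8% and 17.7% of all genes). For the difference between the lines, 2 to 5 were higher and 0 to 12 lower as each library was left out. With the correction 8 were higher, where 9.27% of all genes were. With library totals alone or a filter of 1 CPM, 0 were lower (7.33% and 10.6% of all genes), and 2 with DESeq2 (10.7%). In control levels, 15 were higher with library totals alone (46.8% of all genes) and 5 to 9 as each library was left out. Except where stated, shares of all genes in the fits without 1 library are not given here. Counts of members from those fits are therefore not set against a background.

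Libraries with the same replicate number did not deviate together (r from -0.04 to 0.07), so the numbers were not taken as pairs. With the replicate block, 4 members were higher and 1 lower in the A549 knockdown (12.5% and 9.49% of all genes), 0 were higher in H358 (2.68%), 8 were higher and 3 lower under overexpression (14.0% and 14.3%), 2 were higher and 0 lower for the difference (6.15% and 8.06%), and 6 were higher and 15 lower in control levels (38.6% and 36.2%).

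Among single genes, 3 values changed sign and were then called. MRE11 was at -0.18 in the A549 knockdown (adjusted p = 0.0361) and BRCA2 at 0.36 for the difference (adjusted p = 0.0212), both with the correction for GC content and length, and NBN was at 0.18 under overexpression without RAD21OE replicate 3 (adjusted p = 0.044), all in edgeR. NBN ranged from -0.22 to 0.18 as each library was left out. The cause was not tested. With 3 libraries a group, members at a few CPM such as RAD51B and RAD52 have the widest errors, and a gene that was not called is not shown to be unchanged. Where a library was left out, the 2 that remain in its group share the spread of the other groups.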
